A study of Arabidopsis thaliana with 17 samples.

Results

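The type-A response regulators of Arabidopsis thaliana are 10 genes, ARR3 to ARR9 and ARR15 to ARR17, chosen here by their locus identifiers out of 37336 features in each deposited table. Cytokinin is perceived by membrane-bound histidine kinases, which pass a phosphoryl group through histidine phosphotransfer proteins to response regulators in the nucleus. Type-B regulators are transcription factors that switch on cytokinin target genes, and the type-A genes are among the fastest of these targets. Type-A proteins have a phosphate-receiving domain but no DNA-binding domain, and they dampen the signal that induces them, so that their transcripts are widely read as a measure of cytokinin output. In roots, cytokinin limits meristem size and restrains the initiation of lateral roots.

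The series holds 17 samples from 14-day-old plants and asks how the transcription factor subunit NF-YA2 and the long non-coding RNA BAMBOO act together in roots. The type-A genes were followed in 8 RNA-seq libraries of whole roots, all labelled mock for treatment: the wild type Col-0-b (n = 3), the line bamboo (n = 2, numbered 2 and 3 in the labels) and a separate wild-type set, Col-0 (n = 3). Both wild-type sets carry the genotype label Col-0, and neither has a transgene in its label. The series' design text calls bamboo a mutant, and the name under which its values were deposited carries the letters KD, which are not spelled out. The sources used here do not give the allele, its parental background, or how many plants and lines went into a library. The level of BAMBOO itself and the HA-tagged NF-YA2 lines were not analysed here.

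Sequencing gave 13637179 to 24333119 reads a library assigned to features, of which 6456 to 13407 fell in the 10 type-A genes. Bamboo and Col-0-b came as normalized counts (reads over a factor per library), and Col-0 came as raw counts in a separate table. All 8 root markers (COBL9, EXPA7, PIN2, CASP1, MYB36, SHR, SCR and SUC2) had reads in every library, with a summed level of 478 to 564 CPM (reads of a gene per 1000000 assigned reads). The 8 markers of shoot tissue, mostly photosynthetic genes, summed to 186 to 321 CPM, with the highest sum in Col-0-b replicate 1. Bamboo replicate 2 stood apart from the other 4 libraries of its table on the first principal component, at 34.7 against -21.9 to 6.5. Nothing in the labels says whether libraries of a group came from separate cultures, so p-values measure the spread between these libraries only. In bulk roots, fewer cells of a type and less RNA per cell cannot be told apart.

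In bamboo roots, the type-A genes had slightly higher levels than in Col-0-b, and none passed the test over all features. Of the 10 genes, 9 reached the minimum level for testing (10 or more normalized counts in 2 or more libraries), all 9 through libraries of either genotype, and ARR17 did not. All 9 had a positive log2 difference (49.9% of all tested features did), from 0.06 for ARR3 to 0.41 for ARR5, with a median of 0.26 against -6e-04 over all 20274 tested features. Called at an adjusted p under 0.05 were 0 of 9 (limma, Benjamini-Hochberg adjustment; 0.0691% of features were called higher and 0.0641% lower), and the smallest adjusted p among them was 0.0633. At an unadjusted p under 0.05, 6 of the 9 were higher, which 8.6% of features were. In 7 of the 9, both bamboo libraries lay above all 3 Col-0-b libraries, as they did for 17.1% of features. A log2 difference here is bamboo minus Col-0-b in log2(normalized count + 1), a scale on which changes of weakly expressed genes come out too small.

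**Figure D1:**
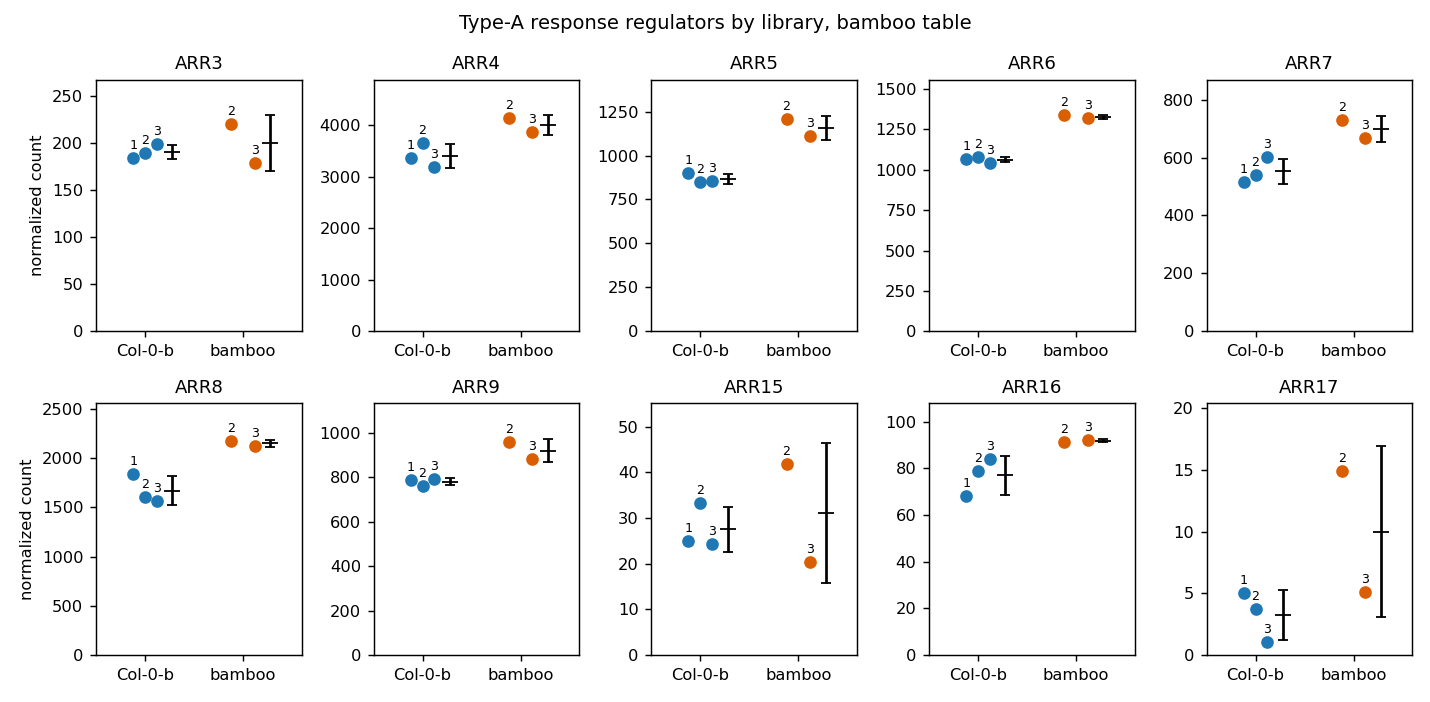
Normalized counts (linear axes from 0) of the 10 type-A genes in Col-0-b (blue, n = 3) and bamboo (orange, n = 2), 1 panel a gene. Numbers beside points are replicate numbers and the bars are mean ± SD. The groups overlap in ARR3 and ARR15 and are apart in the other 8. ARR17, not tested and at 14.9 normalized counts or less, is apart only narrowly: bamboo replicate 3 had 6 reads and Col-0-b replicate 1 had 5.

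ARR5 (AT3G48100, named RR5 by RefSeq) and ARR6 (AT5G62920) are sister genes, and ARR5 is the most used cytokinin reporter of the family. ARR5 had 899, 848 and 855 normalized counts in Col-0-b replicates 1, 2 and 3, and 1205 and 1108 in bamboo replicates 2 and 3. Both bamboo libraries were above every wild-type library, and the gap between the groups was wider than the range inside either. The means were 867 ± 28 (SD, n = 3) and 1157 ± 68.4 (SD, n = 2), a difference of 33.4% and a log2 difference of 0.41 (SE 0.08, 95% interval 0.25 to 0.58, limma adjusted p = 0.0633). This gene was the nearest to the threshold, and it passed with no low-value filter (adjusted p = 0.0473, where 0.178% of features were called higher) and with DESeq2 on the recovered reads (adjusted p = 0.00776).

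ARR6 varied little between replicates. It had 1067, 1078 and 1044 normalized counts in the 3 Col-0-b libraries and 1337 and 1319 in the 2 bamboo libraries. Inside each genotype the libraries were nearly level, and the groups did not overlap. Its log2 difference was 0.32 (SE 0.07, 95% interval 0.17 to 0.47, limma adjusted p = 0.0905; DESeq2 adjusted p = 0.0347). In the RefSeq gene table the ARR6 locus overlaps AT5G62910, a protein-coding gene with a mean of 236 normalized counts. Whether strand was used in counting is not stated, so reads may be shared between these loci.

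ARR8 (AT2G41310) and ARR9 (AT3G57040) form another sister pair. RefSeq gives ARR8 the symbol RR3, while ARR3 is another gene, AT1G59940. ARR8 had 1843, 1602 and 1567 normalized counts in Col-0-b replicates 1, 2 and 3, and 2179 and 2127 in bamboo replicates 2 and 3. The bamboo libraries were close together and above all wild-type libraries, of which replicate 1 was nearest. The log2 difference was 0.37 (SE 0.08, 95% interval 0.19 to 0.55, limma adjusted p = 0.0946; DESeq2 adjusted p = 0.0156). ARR9 had 789, 763 and 792 normalized counts in Col-0-b and 959 and 883 in bamboo, again with no overlap, and a log2 difference of 0.24 (SE 0.08, adjusted p = 0.179). RefSeq lists a non-coding RNA overlapping each of these genes, with means of 0 and 0.186 normalized counts.

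ARR7 (AT1G19050) and ARR15 (AT1G74890), known from the embryo, where auxin induces both in a precursor of the root stem cells, differed in read support. ARR7 had 517, 539 and 600 normalized counts in the 3 Col-0-b libraries, and 731 and 668 in the 2 bamboo libraries. The groups did not overlap, though Col-0-b replicate 3 came near bamboo replicate 3. Its log2 difference was 0.34 (SE 0.09, 95% interval 0.14 to 0.54, limma adjusted p = 0.128). ARR15 rested on 24 to 45 reads a library. It had 25, 33.3 and 24.3 normalized counts in Col-0-b, against 41.9 in bamboo replicate 2 and 20.3 in bamboo replicate 3, so that 1 bamboo library was the highest of the 5 and the other the lowest. The interval of its log2 difference ran from -0.62 to 0.81 (value 0.10, adjusted p = 0.91).

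ARR3 (AT1G59940) and ARR4 (AT1G10470) are sister genes with reported roles in the period of the circadian clock, and ARR4 binds the red-light receptor phytochrome B. ARR4 had 3361, 3648 and 3193 normalized counts in Col-0-b replicates 1, 2 and 3. In bamboo it had 4137 and 3863, above the wild-type range. The log2 difference was 0.24 (SE 0.08, 95% interval 0.06 to 0.41, limma adjusted p = 0.184). ARR3 did not separate the genotypes: its Col-0-b values of 184, 190 and 199 normalized counts lay between the bamboo values of 221 and 179. Its log2 difference was 0.06 (95% interval -0.22 to 0.34, adjusted p = 0.857). That interval includes 0 and also the value of ARR4.

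ARR16 (AT2G40670) and ARR17 (AT3G56380) were the members with low read support along with ARR15. ARR16 had 68, 78.9 and 84.2 normalized counts in Col-0-b and 91.3 and 92.4 in bamboo. Both bamboo values were above the wild-type range, but the log2 difference of 0.26 had an interval that included 0 (-0.12 to 0.63, limma adjusted p = 0.466). ARR17 was counted by 5, 3 and 1 reads in Col-0-b replicates 1, 2 and 3, and by 16 and 6 reads in bamboo replicates 2 and 3. Summed, 22 of 47089081 bamboo reads and 9 of 58151015 Col-0-b reads gave a ratio of CPM of 3.02 (exact 95% Poisson interval 1.34 to 7.45, counting error only). Most of the bamboo reads came from replicate 2. With no low-value filter its log2 difference was 1.36 (SE 0.57, limma adjusted p = 0.294).

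**Figure D2:**
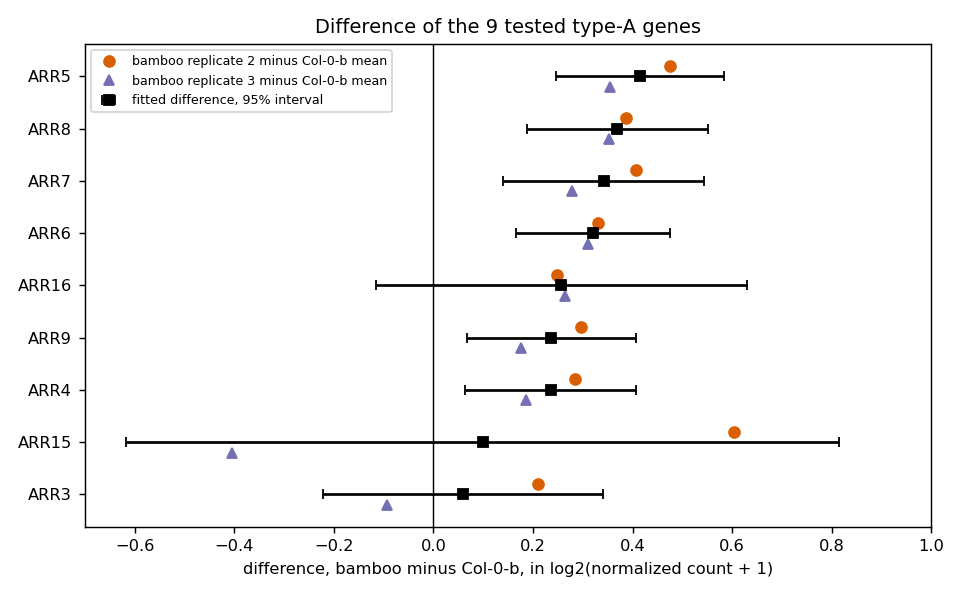
Difference between bamboo and Col-0-b, in log2(normalized count + 1), for the 9 tested type-A genes: squares with bars are the fitted value and its 95% interval, circles bamboo replicate 2 and triangles bamboo replicate 3, each minus the Col-0-b mean. Both bamboo libraries lie right of 0 in 7 genes, and in ARR3 and ARR15 they lie on either side of it.

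The 2 bamboo libraries gave similar differences for the family, although replicate 2 stood apart from the rest over all genes. Set singly against the Col-0-b mean, the median over the 9 genes was 0.33 in replicate 2 and 0.26 in replicate 3, where the medians over all features were 0.0027 and 0.0019. Of the tested genes, ARR16 differed least between them, at 0.25 and 0.26, and ARR15 most, at 0.60 and -0.41. Replicate 2 gave the larger value in 8 of the 9, the exception being ARR16. Without bamboo replicate 3, ARR5, ARR6, ARR7 and ARR8 passed (adjusted p from 0.00681 to 0.0296), in a fit that called 4.44% of all features higher. Without bamboo replicate 2, none passed (smallest adjusted p = 0.214; 0.0645% of features called higher), and 7 of 9 differences were positive. With DESeq2, 3 members passed (ARR5, ARR6 and ARR8) of the 6 to which it gave an adjusted p, in a fit that called 1.7% of features higher. The others of the 6 did not pass with DESeq2: ARR7 (adjusted p = 0.11), ARR4 (0.135) and ARR9 (0.234). With edgeR on the recovered reads, 0 passed (0.074% of features called higher) and the smallest adjusted p was 0.0611.

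Marker genes of cell types and tissues were read in the same 5 libraries. Of the 8 root markers, the phloem sucrose transporter SUC2 was lower in bamboo (log2 difference -0.53, limma adjusted p = 0.023), and the other 7 were not called, with log2 differences from -0.58 (PIN2) to 0.30 (MYB36). The 4 root tip meristem markers (PLT1, PLT2, WOX5 and RGF1) summed to 15 CPM in bamboo replicate 2 and to 22.4 CPM in bamboo replicate 3, against 20.6 to 23.6 CPM in Col-0-b, and none was called. The 8 photosynthetic genes summed to 227 and 257 CPM in bamboo and to 240 to 321 CPM in Col-0-b. Of these, RBCS3B had 131 normalized counts in Col-0-b replicate 1 and 0 to 5.59 in the other 4 libraries. The part of these markers in the type-A values was not tested.

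The rest of the cytokinin pathway did not share one direction. Of 55 other genes listed by role, 46 were tested, 25 with a positive and 21 with a negative log2 difference and a median of 0.01. Of these, 1 passed the test. CKX4, a cytokinin oxidase that degrades the hormone, rose from 511, 593 and 512 normalized counts in Col-0-b to 880 and 816 in bamboo. All bamboo values were above the wild-type range by more than the spread in either group (log2 difference 0.66, SE 0.09, limma adjusted p = 0.0181). The call was lost without Col-0-b replicate 1 (adjusted p = 0.143) or replicate 3 (adjusted p = 0.0701). The other 5 tested oxidases had log2 differences from -0.06 to 0.36.

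Upstream of the type-A genes, the 3 receptors had log2 differences of 0.01 to 0.14, the last for AHK3, which had 2819 to 3055 normalized counts in Col-0-b and 3301 and 3206 in bamboo (adjusted p = 0.332). Among 5 tested phosphotransfer proteins, AHP1 had 1161, 1191 and 901 normalized counts in Col-0-b and 1358 and 1391 in bamboo (log2 difference 0.35, limma adjusted p = 0.175). The other 4 had values from -0.05 to 0.09. Type-B regulators, the activators of the type-A genes, were negative in 5 of 6 tested members. ARR10 had the largest value (log2 difference -0.23, adjusted p = 0.206) and ARR1 had -0.06 (adjusted p = 0.699). Both type-C regulators had 0 reads in all 5 libraries, which allows levels of up to 0.123 to 0.177 CPM.

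Cytokinin response factors, a family of transcription factors partly induced by the hormone, were negative in 5 of 6 members with a median of -0.25. CRF3 had 406, 473 and 496 normalized counts in Col-0-b and 325 and 362 in bamboo, groups that did not overlap (log2 difference -0.41, SE 0.11, limma adjusted p = 0.124). Genes of cytokinin synthesis and activation were evenly divided, 8 positive and 7 negative of 15. LOG2, of the family that frees active cytokinin from its nucleotide, had 11, 16 and 4.06 normalized counts in Col-0-b and 55 and 32.2 in bamboo (log2 difference 2.09, SE 0.49, adjusted p = 0.105). LOG7 of the same family had a value of 0.31 (adjusted p = 0.218). Among 5 other cytokinin-responsive genes, values ran from -0.40 for the thioredoxin TH7 (adjusted p = 0.176) to 0.34, with the D-type cyclin CYCD3;1 at 0.09. NF-YA2, the transcription factor of the study, had a log2 difference of -0.02 (adjusted p = 0.936).

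**Figure D3:**
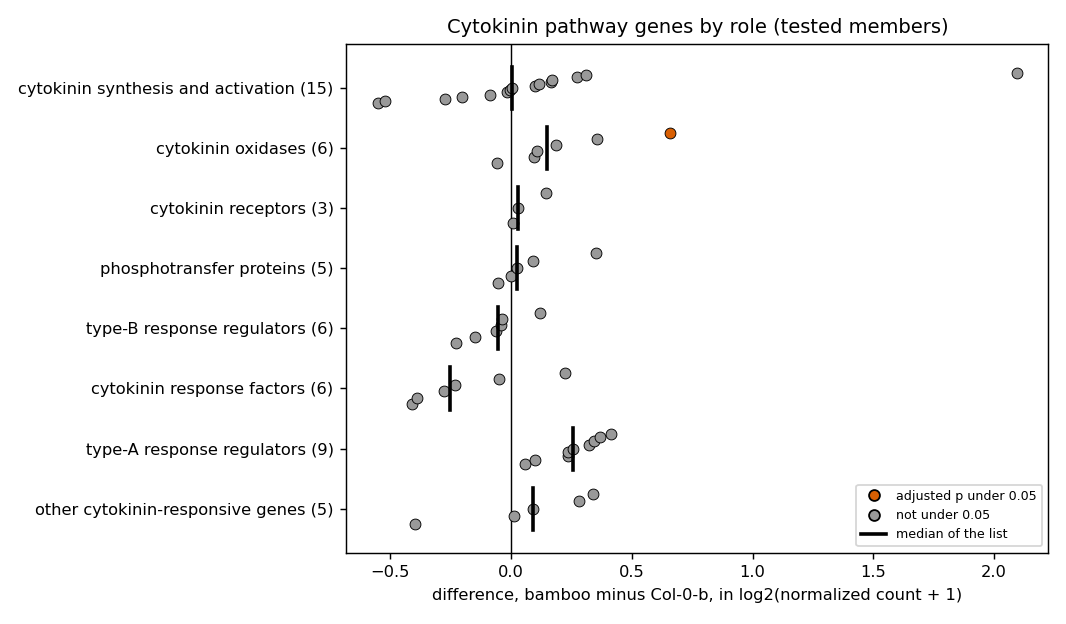
Difference between bamboo and Col-0-b, in log2(normalized count + 1), for each tested gene of the cytokinin pathway, by role (numbers of tested genes in parentheses); black bars are list medians and orange marks an adjusted p under 0.05. The type-A genes all lie right of 0 with a median of 0.26, CKX4 is the orange point, and LOG2 is the point at 2.09.

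The separate wild-type set Col-0 showed how widely type-A levels ranged among roots without a BAMBOO label. The tables were deposited and normalized separately, so Col-0 is set beside the other groups in CPM with no test. ARR5 had 114, 87.7 and 70.9 CPM in Col-0 replicates 1, 2 and 3, against 43.4, 40.6 and 41.2 CPM in Col-0-b and 56.8 and 53.8 CPM in bamboo. The 3 groups did not overlap: Col-0 was highest, Col-0-b lowest and bamboo between them. ARR9 gave the same order, with 80, 68.9 and 66.1 CPM in Col-0, 38, 36.5 and 38.2 CPM in Col-0-b, and 45.2 and 42.8 CPM in bamboo. ARR7 had 50, 44 and 42.2 CPM in Col-0, 24.9, 25.8 and 29 CPM in Col-0-b, and 34.5 and 32.4 CPM in bamboo.

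ARR8 had the same order of groups, with 155, 134 and 117 CPM in Col-0, 88.9, 76.6 and 75.6 CPM in Col-0-b, and 103 CPM in each bamboo library. ARR4 went the other way: Col-0 had the lowest levels, 140, 153 and 123 CPM, Col-0-b had 162, 174 and 154 CPM, and bamboo the highest, 195 and 187 CPM. ARR6 had nearly equal wild-type means, 51.6 ± 12.5 CPM in Col-0 and 51.2 ± 0.666 CPM in Col-0-b (SD, n = 3 each), and the range in Col-0, 39.5 to 64.4 CPM, took in both bamboo libraries at 63 and 64 CPM. ARR17, at 31, 20 and 6 reads in Col-0 (1.48, 0.943 and 0.44 CPM), was above all Col-0-b libraries, where it had 0.0489 to 0.241 CPM.

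Over the family, every Col-0-b library was below every Col-0 library in 6 of 10 genes (ARR3, ARR5, ARR7, ARR8, ARR9 and ARR17) and above in 1 (ARR4). Among 20536 features with at least 10 reads in at least 2 of the 6 wild-type libraries, 27.3% lay below and 25.4% above in this way. The median ratio of Col-0-b to Col-0 was 0.59 over the 10 genes and 0.986 over those features, and it was 0.598 and 1.00 with TMM scaling over both tables. The mean of bamboo fell between the 2 wild-type means in 8 of the 10 genes, the exceptions being ARR4 and ARR6 and, with TMM scaling, ARR15 as well. This count rests on the same Col-0-b libraries as the differences given above, so it is not a separate result. Its share over all features was not computed. CKX4 averaged 40 ± 9.05 CPM in Col-0, 25.9 ± 2.13 in Col-0-b and 40.5 ± 1.35 in bamboo, so that its bamboo mean differed from that of Col-0 by less than the SD of either. LOG2 averaged 3.67 ± 2.84, 0.497 ± 0.287 and 2.08 ± 0.729 CPM in the same order. The LOG2 mean of bamboo thus lay about midway between the wild-type means. In other genes bamboo was nearer to Col-0-b, and how many genes were nearer to either set was not counted. The oxidase CKX2 averaged 0.513 ± 0.889 CPM in Col-0, 14 ± 1.39 in Col-0-b and 18 ± 4.24 in bamboo, a ratio of Col-0-b to Col-0 of 27.2.

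**Figure D4:**
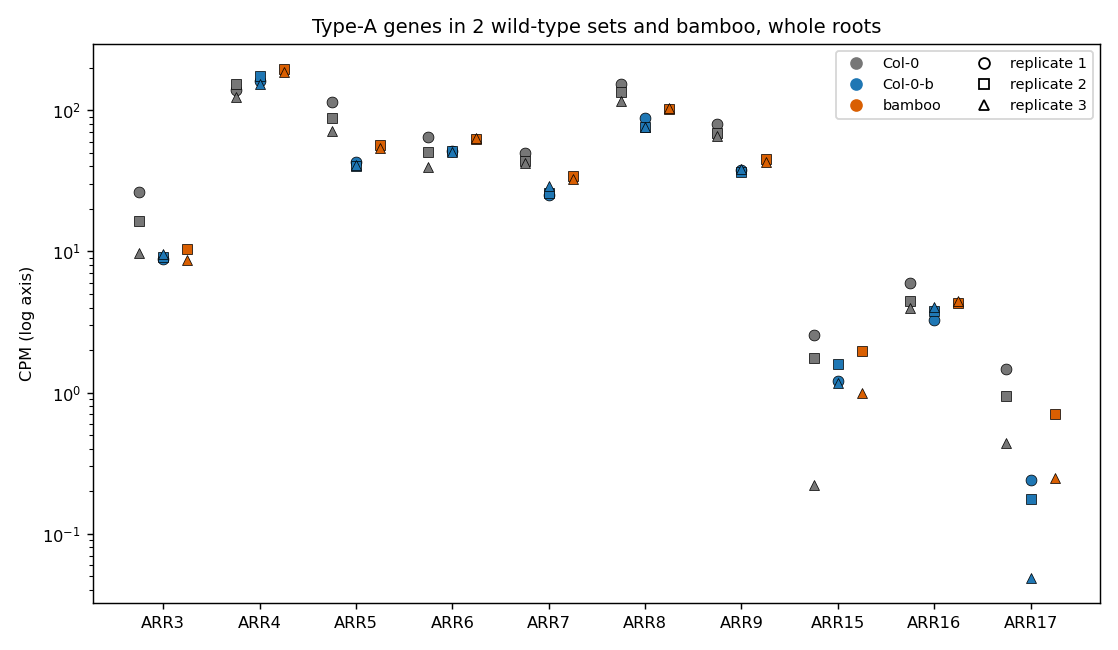
Levels in CPM (log axis) of the 10 type-A genes in the 8 whole-root libraries, Col-0 in grey, Col-0-b in blue and bamboo in orange, with a marker shape for each replicate number. CPM is not scaled to gene length, so heights are to be compared within a gene; Col-0 replicate 3 (grey triangles) is the lowest Col-0 library in all 10 genes.

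The Col-0 libraries also differed among themselves. Replicate 3, the shallowest at 13637179 reads, was the lowest of the 3 in 10 of 10 type-A genes, where it was the lowest for 37.1% of 19888 features. Replicate 1 was the highest in 9 of 10, where it was for 38% of features, and ARR4 was highest in replicate 2. ARR3 had 26.5 CPM in replicate 1, 16.3 CPM in replicate 2 and 9.68 CPM in replicate 3. ARR15 had 54, 37 and 3 reads in replicates 1, 2 and 3, or 2.58, 1.74 and 0.22 CPM, so that replicate 3 was at the floor of 3 reads. ARR16 had 6.02, 4.48 and 3.96 CPM in the same libraries.

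The highest Col-0 library was at least 1.5 times the lowest in 6 of 10 type-A genes and in 27.9% of features, with medians of 1.56 and 1.27. In Col-0-b this held for 0 of the 9 type-A genes measured and for 8.49% of features, with medians of 1.13 and 1.14. Among other pathway genes measured in Col-0, replicate 3 was the lowest in 27 of 45, including 5 of 6 cytokinin response factors, 4 of 5 oxidases and 0 of 3 receptors. It was the lowest in 2 of 8 root markers, 1 of 7 shoot markers and 0 of 4 root tip meristem markers. Summed root markers were 478, 563 and 522 CPM in Col-0 replicates 1, 2 and 3, and summed shoot markers 223, 197 and 186 CPM. The part of depth or of tissue in the lower type-A values of replicate 3 was not tested.

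Read shares inside sister pairs do not depend on library scaling or, between libraries, on gene length. The share of ARR5 in the reads of ARR5 and ARR6 was 63.9%, 63.4% and 64.2% in Col-0 replicates 1, 2 and 3, although the level of ARR5 differed 1.61-fold and that of ARR6 1.63-fold between the highest and lowest of those libraries. It was 45.7%, 44% and 45% in Col-0-b, and 47.4% and 45.7% in bamboo. The means were 63.8% ± 0.429 in Col-0 and 44.9% ± 0.86 in Col-0-b (SD, n = 3 each), and 46.5% ± 1.25 in bamboo (SD, n = 2), so that the wild-type sets lay far apart for their spread and bamboo overlapped Col-0-b. Exact binomial 95% intervals were taken for each library and cover counting error only. Their lowest and highest ends were 61.6% and 66.6% over the Col-0 libraries, and 41.5% and 48% over those of Col-0-b. The wild-type sets were deposited separately, and ARR6 overlaps AT5G62910, so reads shared between those loci may enter this share. Whether reads were counted alike in both sets was not tested.

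The share of ARR3 in the reads of ARR3 and ARR4 varied inside Col-0, at 15.9%, 9.61% and 7.27%, and was 4.95% to 5.86% in Col-0-b and 5.07% and 4.42% in bamboo. ARR8 held 63.9% to 66% of its pair with ARR9 in Col-0, 66.4% to 70% in Col-0-b, and 69.4% and 70.7% in bamboo. ARR7 held 94.2% to 99.5% of its pair with ARR15 in all 8 libraries. ARR16 held 80.3%, 82.6% and 90% of its pair with ARR17 in Col-0, 93.2%, 95.5% and 98.8% in Col-0-b, and 86% and 94.8% in bamboo. Between bamboo and Col-0-b no share was tested; the ranges of the 2 groups overlapped in all 5 pairs.

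**Figure D5:**
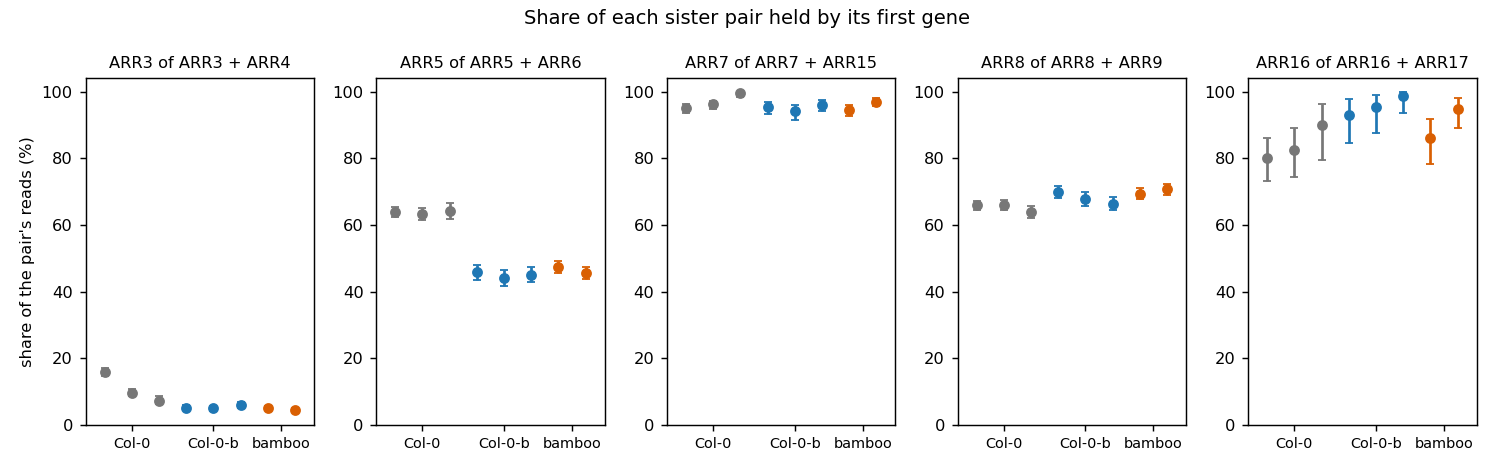
Share (%) of each sister pair's reads held by the first gene named, in each of the 8 libraries, Col-0 in grey, Col-0-b in blue and bamboo in orange; bars are exact 95% binomial intervals and cover counting error only. The ARR5 share sits near 63.8% in Col-0 and near 44.9% in Col-0-b, with bamboo beside Col-0-b.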

How the data were processed

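The type-A genes, the cytokinin role lists and the markers were chosen with earlier results of these data known, by locus identifier. Per the submitters' processing notes, the tools were Trimmomatic, STAR (2.7.2a) and featureCounts (Subread 1.6.5), with TAIR10 as the build. Per the labels' protocols, libraries were stranded mRNA read as single ends; the sources used here do not give the strand setting of the counting. For Col-0, raw counts were deposited. The other deposited table holds a signal: read counts of bamboo and Col-0-b libraries, each scaled by its own factor. In each column 100% of values were whole multiples of 1 unit (tolerance 0.01), so reads were recovered; size factors were 0.811 to 1.18. The WT columns were read as Col-0-b because they stand beside bamboo, and the col columns as Col-0; the names say no more. The raw-count table holds 6 other columns, whose names do not settle their line; they were not used.

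The main test was limma 3.58.1 (R 4.3.3) on log2(normalized count + 1), trended and robust, for features with at least 10 normalized counts in at least 2 libraries, adjusted over all of them and called at 0.05. CPM was computed from reads assigned to features. edgeR 4.0.16 and DESeq2 1.42.0 on recovered reads, a pseudocount of 8, no filter, TMM scaling, a replicate block and leaving out each library were alternatives. Shares carry exact Clopper-Pearson 95% intervals, which, with floors of 3 reads, cover counting error only. Named were all type-A genes and, of each role list, called members, the largest change and the highest level. SUC2, PIN2, MYB36, RBCS3B, GLDP1 and CKX2 were named after their values were seen. RefSeq (TAIR10.1) held all 86 listed identifiers and was used for symbols and overlaps only. Levels per gene length and protein comparisons of sister genes were planned and not made, and no sequence is shown.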

Additional observations from a re-analysis of the deposited data

How the results depend on the processing

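The fold changes of the type-A genes kept their sign in every alternative that tested them, except ARR3 and ARR15: without bamboo replicate 2 they were at -0.0926 and -0.4054, and without bamboo replicate 3 at 0.2109 and 0.6037. Their median was 0.24 with a pseudocount of 8 and with a replicate block, and 0.24 to 0.33 when 1 library was left out. The number of type-A genes called, 0, became 1 with no low-value filter, 3 with DESeq2, 3 with a replicate block and 0 to 4 when 1 library was left out, with 4 only without bamboo replicate 3, a fit in which a single bamboo library takes its spread from Col-0-b. Over all features, 14 higher and 13 lower became 46 and 29 with no filter, 182 and 135 with DESeq2, 513 and 379 with a replicate block, and 6 to 894 and 4 to 1052 when 1 library was left out. Other pathway genes called, 1 higher and 0 lower, became 3 and 1 with a replicate block, and 0 to 3 and 0 to 3 when 1 library was left out. The cause of these differences was not tested. With no filter, 25851 features were tested, against 20274 in the main fit. The genotypes share only 2 replicate numbers, and the replicate 2 minus 3 differences of both correlated at 0.079 over genes, so the block rests on a number alone; under it ARR5 (adjusted p = 0.0142), ARR6 (0.0332) and ARR8 (0.00865) were called. Among single genes, taking the type-A genes and CKX4 together, 92 values in alternatives stayed on their side of the threshold, 11 passed it, 2 lost it and 2 changed sign. Both losses were of CKX4, without Col-0-b replicate 1 and without replicate 3. Summed type-A CPM moved by less than its SD in each group under TMM scaling. Depth limits ARR15 and ARR17, since 3 reads correspond to 0.123 to 0.22 CPM.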
